A study of Mus musculus with 6 samples.

Results

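The D-type cyclins, the kinases they activate, their inhibitors and the downstream proteins Rb1 and Pcna were examined in microglia, the resident macrophages of the brain. The 10 genes were chosen by symbol (*Ccnd1*, *Ccnd2*, *Ccnd3*, *Cdk4*, *Cdk6*, *Cdkn1b*, *Cdkn2c*, *Cdkn2d*, *Rb1* and *Pcna*), and all 10 were among the 19225 genes listed. Libraries came from CD11b+ cells of stress-naïve male mice, enriched with magnetic beads, with 3 mice labelled Cnr1+/+ (strain C57BL6/J, genotype wt/wt, described as littermates in the study's methods) and 3 labelled Cnr1-/- (strain Cnr1 tm1Zim, genotype d/d), 1 library per mouse. The labels give an age of 3 months, and the study's methods give a younger range. In the Cnr1 tm1Zim allele a neomycin cassette disrupts the coding region of the cannabinoid receptor gene in every cell, so a difference can arise outside microglia, and the CD11b beads also retain other myeloid cells. The comparison asks which microglial transcripts differ between the genotype labels.

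Values are reads per gene scaled to library size (cpm, the deposited CPM) with the authors' TMM scaling, from libraries of 3′ transcript ends. The value of 1 read corresponded to 7708803 to 10723822 reads per library. Libraries labelled Cnr1-/- held 1.41, 1.21 and 1.79 cpm of *Cnr1* itself, and all 3 labelled Cnr1+/+ held 0 (an upper limit of 0.389 cpm from 3 reads, counting error only). This goes against the labels, reads from the 3′ end need not cover the disrupted part of the gene, and directions below are those of the labels. Whether labels were exchanged was not tested, and an exchange would turn over every direction and fold change below. The 9 microglia markers summed to 14244 to 16536 cpm, with overlapping groups. The library labelled Cnr1-/- replicate 2 stood apart, with 4056 cpm of 8 listed neutrophil markers against 265.7 to 523.1 cpm in the other 5 libraries, and 2342 cpm of 7 erythrocyte markers against 135.7 to 237.0 cpm. All 8 and all 7 of these markers were higher there than in any other library, and calls of the members and of *Smc4* that ended without that library are named as such below.

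D-type cyclins link growth factor signals to the cell cycle. Induced by mitogens such as CSF1, they bind and activate the kinases Cdk4 and Cdk6, which phosphorylate the retinoblastoma protein Rb1 and so release E2F factors that switch on replication genes such as *Pcna*. The INK4 proteins, among them those encoded by *Cdkn2c* and *Cdkn2d*, bind the kinases themselves, and the Kip protein encoded by *Cdkn1b* inhibits cyclin E complexes while it also helps cyclin D complexes to assemble. Microglia of the adult brain divide slowly, and most are in a resting state. In bulk samples, fewer cells of a type and less RNA per cell cannot be told apart.

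Within each library a 3′ protocol yields about 1 fragment per transcript, so the cpm of different genes were set side by side without division by length. *Ccnd1* held the highest level of the 10 genes in 6 of 6 libraries, from 79.6 to 100.4 cpm with a median of 95 cpm. *Cdk6* was next in 6 of 6 libraries, with 52.0 to 67.7 cpm, and did not overlap *Ccnd1*. *Cdkn1b* (32.2 to 53.8 cpm) and *Ccnd3* (29.1 to 51.5 cpm) followed with ranges that overlapped each other. *Pcna* (14.3 to 30.1 cpm), *Ccnd2* (8.94 to 23.2 cpm), *Cdk4* (11.7 to 15.9 cpm) and *Rb1* (8.82 to 15.5 cpm) formed a lower tier, and neighbours in it overlapped. *Cdkn2d* stayed between 4.19 and 6.9 cpm and *Cdkn2c* between 0.21 and 1.68 cpm, each below every gene named before it in every library. Expressed as reads, 56 of the 60 values of the 10 genes were whole within 0.02 reads.

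**Figure D1:**
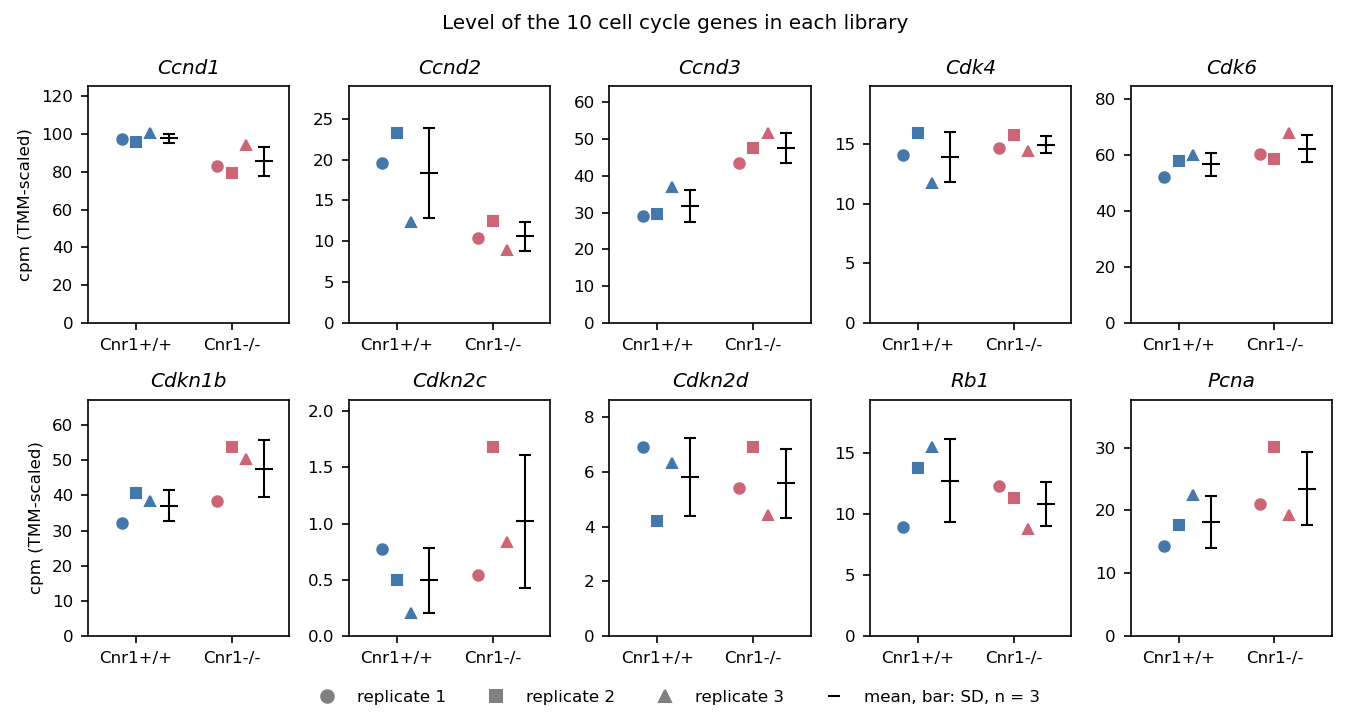
Level of each of the 10 genes in cpm (vertical axes from 0, scaled per gene) in the 3 Cnr1+/+ (blue) and 3 Cnr1-/- (red) libraries; symbols mark the replicate number, horizontal ticks the group mean and bars the SD (n = 3). All 3 Cnr1-/- values of *Ccnd3* lie above the Cnr1+/+ values, those of *Ccnd1* lie below them, and the other genes overlap.

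Of the 8 genes that averaged 10 cpm or more, 3 had a nominal p under 0.05 with limma, *Ccnd3* and *Cdkn1b* higher and *Ccnd2* lower in the libraries labelled Cnr1-/-. The share of all 6659 genes tested that passed was 6.02%, with 5.09% higher and 0.931% lower. The members were chosen with earlier results of these data known, so counts of members beside such shares are not a test of the family. Of the genes that passed, 84.5% were higher, a share of 52.5% with each library centred on its median and 45.3% after quantile normalisation. With limma 0 of the 8 had an adjusted p under 0.1, which 0.105% of the genes tested had (0.0901% with a fold change over 1.5 as well). Groups did not overlap for 2 of the 8, *Ccnd3* higher and *Ccnd1* lower, against 11% of the genes tested (8.85% higher, 2.13% lower). The estimate was above 0 for 5 of the 8 and for 68.4% of the genes tested, a share of 52% with median centring and 49.7% with quantile normalisation. Without replicate 2 labelled Cnr1-/-, the same call passed for *Ccnd3* and *Ccnd2* and for 3.81% of the genes tested (1.20% lower), and without a filter on low values it passed for 3 of the 10 and for 5.17% (1.48% lower). The median log2 fold change (Cnr1-/- minus Cnr1+/+) was 0.13 over the 8 genes and 0.08 over all genes tested.

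*Ccnd3* encodes the D-type cyclin best known from lymphoid and erythroid cells. The gene lies on chromosome 17 of mm10 from 47505051 to 47599691 on the plus strand. RefSeq start sites of *Ccnd3* lie 88.4 kb apart, and reads from the shared 3′ end do not tell their transcripts apart. The windows of 250 bases before to 50 bases after each start are shown for *Ccnd3* and *Cdkn1b*, the members that were higher at a nominal p under 0.05, from RefSeq on GRCm38.p6 (plus strand, 5′ to 3′), with CCAAT and GTAAACA on either strand in capitals.
Ccnd3 upstream start, chr17:47504801-47505100: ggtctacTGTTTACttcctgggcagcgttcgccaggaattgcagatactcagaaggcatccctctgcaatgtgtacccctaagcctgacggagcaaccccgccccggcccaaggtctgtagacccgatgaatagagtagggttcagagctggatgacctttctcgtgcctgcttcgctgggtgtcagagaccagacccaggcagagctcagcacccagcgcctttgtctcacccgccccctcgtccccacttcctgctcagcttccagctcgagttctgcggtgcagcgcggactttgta
Ccnd3 downstream start, chr17:47593217-47593516: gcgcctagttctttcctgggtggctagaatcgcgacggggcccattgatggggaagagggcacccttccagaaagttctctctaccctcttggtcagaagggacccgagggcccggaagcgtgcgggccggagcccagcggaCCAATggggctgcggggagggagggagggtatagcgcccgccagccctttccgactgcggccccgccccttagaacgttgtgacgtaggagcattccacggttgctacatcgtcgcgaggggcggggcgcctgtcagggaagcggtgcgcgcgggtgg
Cdkn1b start, chr6:134920151-134920450: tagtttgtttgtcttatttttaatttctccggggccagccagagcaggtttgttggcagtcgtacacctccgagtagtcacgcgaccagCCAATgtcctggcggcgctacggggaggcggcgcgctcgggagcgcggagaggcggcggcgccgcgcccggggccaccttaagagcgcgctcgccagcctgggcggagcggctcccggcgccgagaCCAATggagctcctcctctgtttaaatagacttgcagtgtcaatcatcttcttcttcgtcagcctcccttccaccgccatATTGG
The letters GTAAACA, a FOXO recognition motif, occur in the upstream *Ccnd3* window and in no other of the 9 windows that matched 7 of the 10 genes, and in 3.65% of all 32851 windows. CCAAT occurs in 5 of the 9 windows and 37.4% of all, and the E-box CACGTG in 3 of the 9 (*Cdk4*, *Cdk6* and *Cdkn2c*, with 4 copies in *Cdk4*) and 7.15% of all. The GC box GGGCGG occurs in 7 of the 9 and 35.7% of all. The E2F motifs TTTCCCGC, TTTGGCGC and TTTCGCGC, found in 1.07%, 0.514% and 0.323% of all windows, were in 0 of the 9. The cAMP response element TGACGTCA and the glucocorticoid response element, found in 1.79% and 0.00913% of all, were also in 0 of the 9. Both strands were searched, and matches of the motifs named here did not overlap in the 9 windows apart from the GC box in *Cdk4*. A match describes the letters of a window, not a bound site.

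In the libraries labelled Cnr1+/+, *Ccnd3* had 29.1, 29.5 and 36.9 cpm (replicates 1 to 3, 224 to 351 reads). In those labelled Cnr1-/- it had 43.4, 47.6 and 51.5 cpm (401 to 510 reads). The lowest of the second group lay above the highest of the first. Means of 31.8 ± 4.41 and 47.5 ± 4.05 cpm (SD, n = 3) gave a log2 difference of 0.58 (standard error 0.165), or 1.5-fold with a 95% interval of 1.18 to 1.89. The nominal p was 0.00156 and the adjusted p 0.453 (limma), rank 23 of 6659 by p, and the two-sided exact permutation p was 0.1, the smallest that 3 against 3 allow. The spread within groups, 13.8% and 8.53% of the mean, exceeded the 5.97% and 4.75% that counting alone gives. *Bysl*, which overlaps the 3′ end of *Ccnd3* on the other strand, had 3.79 to 5.57 cpm in the first group and 2.27 to 3.54 cpm in the second. The log2 fold change of *Ccnd3* stayed between 0.49 and 0.69 and its nominal p under 0.05 in all 13 alternative fits, without replicate 2 labelled Cnr1-/- too (0.58), while its limma adjusted p lay between 0.157 and 0.825.

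*Ccnd2* encodes a D-type cyclin with roles in neural progenitors and lymphocytes (chromosome 6, 127125162 to 127152193, minus strand). It had 19.6, 23.2 and 12.4 cpm in libraries labelled Cnr1+/+ and 10.4, 12.5 and 8.94 cpm in those labelled Cnr1-/-. Replicates 1 and 2 of the first group were high, whereas its replicate 3 (118 reads) lay just below replicate 2 of the second (134 reads), so the groups overlapped. The means were 18.4 ± 5.51 and 10.6 ± 1.79 cpm (SD, n = 3). The log2 difference was −0.76 (standard error 0.261), 0.592-fold with a 95% interval of 0.409 to 0.859. The limma nominal p was 0.00747, its adjusted p 0.655 and the exact permutation p 0.2. Without replicate 2 labelled Cnr1+/+ the difference was −0.56 and no longer had a nominal p under 0.05 (limma adjusted p = 0.866), and in the other 11 alternative fits that kept the gene the nominal p stayed under 0.05.

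*Ccnd1*, the D-type cyclin of most adherent cells and macrophages (chromosome 7, 144929931 to 144939925, minus strand), had 97.2, 95.9 and 100.4 cpm in libraries labelled Cnr1+/+. In those labelled Cnr1-/- it had 82.9, 79.6 and 94.2 cpm. All values of the second group were lower, replicate 3 only slightly. The means were 97.8 ± 2.35 and 85.6 ± 7.64 cpm (SD, n = 3), and the log2 difference was −0.20 with a 95% interval of −0.47 to 0.07 (limma nominal p = 0.148, adjusted p = 0.887, exact permutation p = 0.1). Spread between the Cnr1+/+ libraries, 2.4% of the mean, was below the 3.38% that counting gives, and that between the Cnr1-/- libraries was 8.93% against 3.53%. After median centring *Ccnd1* passed a nominal p of 0.05 at −0.27 (limma adjusted p = 0.884), as did 5.63% of the genes tested, 2.67% lower. After quantile normalisation it passed at −0.28 (limma adjusted p = 0.893), as did 5.41% of the genes tested, 2.96% lower. Under both scalings *Cdkn1b* no longer passed (0.27 with median centring, 0.26 with quantile normalisation), so that 3 members passed in each. LTO1 overlaps the 3′ end of *Ccnd1* on the other strand, with 2.62 to 9.38 cpm.

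The sum of the D-type cyclins differed little, with 145.8, 148.7 and 149.8 cpm in libraries labelled Cnr1+/+ and 136.7, 139.7 and 154.7 cpm in those labelled Cnr1-/-. Its composition differed more, and shares of 1 library do not depend on the scaling between libraries. *Ccnd3* made up 19.9%, 19.9% and 24.6% of the sum in the first group and 31.7%, 34% and 33.3% in the second. *Ccnd1* made up 66.6%, 64.5% and 67.1% against 60.6%, 57.0% and 60.9%. Neither share overlapped between groups. The share of *Ccnd2* was 13.4%, 15.6% and 8.29% against 7.6%, 8.95% and 5.78%, which overlapped. The level of *Ccnd1* was 3.10 ± 0.335 times that of *Ccnd3* in the libraries labelled Cnr1+/+ and 1.80 ± 0.122 times in those labelled Cnr1-/- (SD, n = 3). The ratio of *Ccnd2* to *Ccnd3* was 0.599 ± 0.235 and 0.225 ± 0.046 (SD, n = 3), also without overlap. No test was run on these sums and ratios, which follow from the values above.

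**Figure D2:**
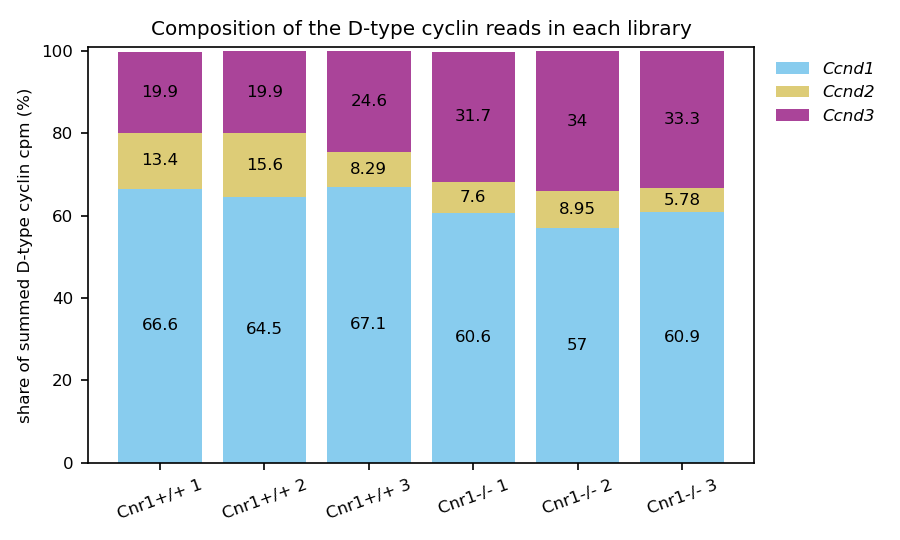
Share of the summed D-type cyclin cpm (vertical axis, %) taken by *Ccnd1*, *Ccnd2* and *Ccnd3* in each of the 6 libraries. The *Ccnd3* share lies between 19.9% and 24.6% in the Cnr1+/+ libraries and between 31.7% and 34% in the Cnr1-/- libraries.

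Neither kinase passed the test, and both overlapped between groups. *Cdk4* (chromosome 10, 127063534 to 127067920, plus strand) had 14.1, 15.9 and 11.7 cpm in libraries labelled Cnr1+/+ and 14.7, 15.8 and 14.4 cpm in those labelled Cnr1-/-. The log2 difference of 0.12 had a 95% interval of −0.36 to 0.60 (limma adjusted p = 0.964, exact permutation p = 0.5). *Cdk6*, the more abundant of the pair here (chromosome 5, 3341485 to 3531008, plus strand), had 52.0, 57.9 and 60.0 cpm against 60.5, 58.5 and 67.7 cpm. The log2 difference of 0.14 had a 95% interval of −0.16 to 0.43 (limma adjusted p = 0.933, exact permutation p = 0.2). *Cdk6* stood at 4.16 ± 0.852 times *Cdk4* in the first group and 4.17 ± 0.493 times in the second (SD, n = 3). On the linear scale the 95% intervals spanned fold changes of 0.778 to 1.51 for *Cdk4* and 0.895 to 1.35 for *Cdk6*. *Tspan31* overlaps the 3′ end of *Cdk4* on the other strand, with 7.98 to 12.7 cpm.

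Of the inhibitors, *Cdkn1b* was the only one above the minimum mean (chromosome 6, 134920401 to 134925513, plus strand). It had 32.2, 40.6 and 38.5 cpm in libraries labelled Cnr1+/+ and 38.4, 53.8 and 50.4 cpm in those labelled Cnr1-/-. Replicates 2 and 3 of the second group were high, and its replicate 1 lay within the first group. Means of 37.1 ± 4.39 and 47.6 ± 8.08 cpm (SD, n = 3) gave a log2 difference of 0.35 (standard error 0.169), 1.27-fold with a 95% interval of 1 to 1.62. The nominal p was 0.0477, the adjusted p 0.825 (limma) and the exact permutation p 0.3. *Cdkn1b* passed in 6 of 13 alternative fits, and its value was unchanged at 0.35 without the mean-variance trend, where it did not pass. It did not pass without replicate 1 (0.25) or 3 (0.38) labelled Cnr1+/+, or without replicate 2 (0.25), the library rich in neutrophil markers, or 3 (0.30) labelled Cnr1-/-. The summed D-type cyclins stood at 4.53, 3.66 and 3.89 times *Cdkn1b* in the libraries labelled Cnr1+/+. In those labelled Cnr1-/- they stood at 3.56, 2.6 and 3.07 times. The groups did not overlap, with 3.66 against 3.56 as the nearest values. No test was run on this ratio, and *Cdkn1b* alone overlapped.

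The INK4 inhibitors lay below the minimum mean. *Cdkn2d* (chromosome 9, 21288410 to 21291407, minus strand) had 6.88, 4.19 and 6.31 cpm against 5.41, 6.9 and 4.41 cpm, 37 to 74 reads per library. Its groups overlapped fully, and in a fit without the filter the log2 difference was −0.05 (95% interval −0.79 to 0.70). *Cdkn2c* (chromosome 4, 109660876 to 109667189, minus strand) rested on 6, 5 and 2 reads in the libraries labelled Cnr1+/+ and 5, 18 and 7 reads in those labelled Cnr1-/-. The high value was again in replicate 2 labelled Cnr1-/-, at 1.68 cpm with an exact Poisson 95% interval of 0.995 to 2.65 cpm (counting error only), and the other 5 libraries had 0.21 to 0.835 cpm. No difference in *Cdkn2c* was detected (log2 fold change 0.90, 95% interval −0.99 to 2.80 without the filter).

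*Rb1*, the pocket protein that the kinases inactivate (chromosome 14, 73183673 to 73325822, minus strand), had 8.95, 13.8 and 15.5 cpm in libraries labelled Cnr1+/+ and 12.3, 11.3 and 8.82 cpm in those labelled Cnr1-/-. Low and high values occurred in both groups, and the log2 difference was −0.21 with a 95% interval of −0.78 to 0.36 (limma adjusted p = 0.948, exact permutation p = 0.5). *Rcbtb2* covers the 3′ end of *Rb1* on the other strand and had 54.0, 75.2 and 61.0 cpm against 89.6, 87.1 and 87.9 cpm. *Gm17233*, which was not among the listed genes, covers that end on the strand of *Rb1* itself. Whether the counting used strand is not given in the sources used here, and the part of overlapping genes in these values was not tested.

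*Pcna*, the sliding clamp of DNA polymerases and a target of E2F (chromosome 2, 132249162 to 132253314, minus strand), had 14.3, 17.7 and 22.5 cpm in libraries labelled Cnr1+/+. In those labelled Cnr1-/- it had 21, 30.1 and 19.3 cpm. Replicate 2 labelled Cnr1-/- was the highest and the rest overlapped. Means of 18.2 ± 4.13 and 23.5 ± 5.81 cpm (SD, n = 3) gave a log2 difference of 0.37 with a 95% interval of −0.09 to 0.82 (limma nominal p = 0.112, exact permutation p = 0.3). Without replicate 3 labelled Cnr1+/+ *Pcna* passed a nominal p of 0.05 at 0.53 (limma adjusted p = 0.512). In that fit 600 of the 6614 genes tested passed, 548 of them higher. With each library left out in turn the value of *Pcna* lay between 0.17, without replicate 2 labelled Cnr1-/-, and 0.53. The processed pseudogene *Pcna-ps2* had at most 1.21 cpm, and *Pcna* held 3 of the 4 values of the members that were not whole reads.

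**Figure D3:**
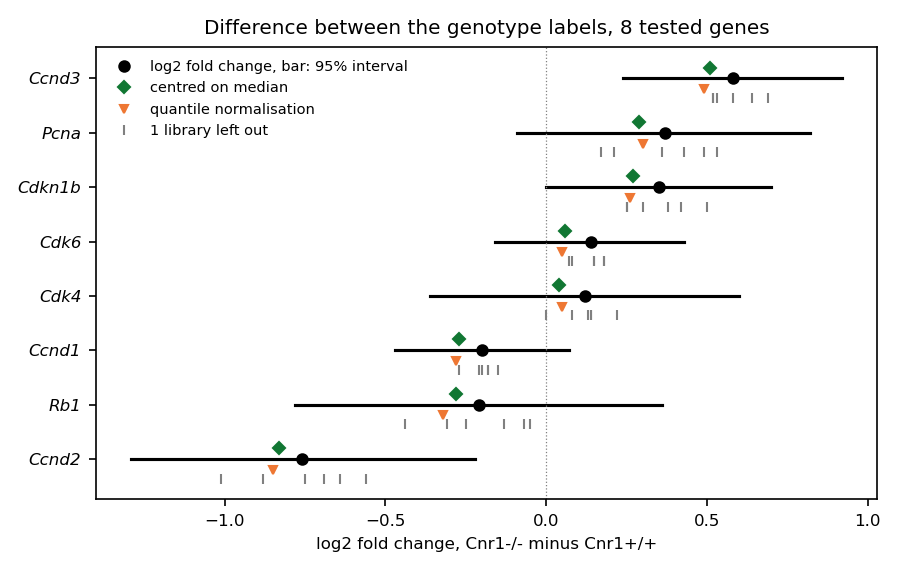
Log2 fold change (Cnr1-/- minus Cnr1+/+, horizontal axis) of the 8 genes tested; black points and bars are the limma estimate and its 95% interval, diamonds and triangles are 2 other scalings, and grey ticks are fits that each leave out 1 library. The black intervals of *Ccnd3* and *Ccnd2* do not reach 0, and those of *Cdk4*, *Cdk6*, *Ccnd1*, *Rb1* and *Pcna* span it.

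Other genes of the G1/S network, 51 in all, include E-type cyclins, Cdk2, other CDK inhibitors, pocket proteins, E2F factors and the kinase that activates CDKs. Proteins that degrade or transcribe D-type cyclins, *Trp53*, *Mdm2*, *Btg1* and *Btg2* are also among them. Of the 51 genes 50 were listed and 21 were tested. With limma 0 were higher and 1 was lower at a nominal p under 0.05, and 0 had an adjusted p under 0.1, against the 5.09% and 0.931% of all genes tested that were higher and lower. The median log2 fold change was 0.08, equal to that of all genes tested. The gene that passed was *Foxo1*, a forkhead factor under the control of growth factor signalling that can activate *Cdkn1b*. *Foxo1* had 28.1, 27.3 and 34.6 cpm in libraries labelled Cnr1+/+ and 18.1, 23.6 and 24.6 cpm in those labelled Cnr1-/-, without overlap, and a log2 difference of −0.45 (limma adjusted p = 0.792). *Foxo1* did not pass without replicate 3 labelled Cnr1+/+, at −0.34 (limma adjusted p = 0.627), or without replicate 1 labelled Cnr1-/-, at −0.31 (limma adjusted p = 0.861). Groups did not overlap for 3 of the 21, against the 11% of all genes tested, *Foxo1* lower and *Foxo3* and *Cdk7* higher. *Foxo3*, a paralogue of *Foxo1* (named, like *Cdk7*, after its values were seen), had 30.6, 27.5 and 33.1 cpm against 35.1, 40.2 and 36.1 cpm, a log2 difference of 0.29 that did not pass.

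The most abundant tested genes of that list were *Btg1*, *Cul1*, *Gsk3b*, *Rbbp4* and *Cdc37*. *Btg1*, an antiproliferative factor, had a mean of 90.1 cpm and a log2 fold change of 0.05. *Cul1*, a scaffold of SCF ubiquitin ligases, had 77.9 cpm and 0.08. *Gsk3b*, the kinase that marks cyclin D1 for degradation, had 68.1 cpm and 0.24 (limma adjusted p = 0.857). *Rbbp4*, an Rb-binding histone chaperone, had 60.6 cpm and 0.12, and *Cdc37*, a chaperone that helps Cdk4 to fold, had 46.3 cpm and 0.08. None of these 5 genes had a nominal p under 0.05 with all libraries, and all 5 overlapped between groups. Without replicate 2 labelled Cnr1+/+ *Gsk3b* passed at 0.37 (limma adjusted p = 0.814), as did 368 of the 6663 genes tested, 308 of them higher. Without replicate 1 labelled Cnr1+/+ its value was 0.14.

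Of 71 genes of S phase and mitosis, 70 were listed but only 15 reached the minimum mean. With limma 1 of the 15 was higher at a nominal p under 0.05, 0 were lower and 0 had an adjusted p under 0.1, against 5.09%, 0.931% and 0.105% of all genes tested. The median log2 fold change was 0.13, beside 0.08 over all genes tested. Groups did not overlap for 1 of the 15, against the 11% of all genes tested. It was *Slbp* (named after its values were seen), with 19.7, 17.2 and 18.5 cpm against 23.2, 23.2 and 21.8 cpm. The gene that passed was *Smc4*, a condensin subunit, with 22.2, 28.0 and 16.9 cpm in libraries labelled Cnr1+/+ and 28.4, 33.9 and 26.7 cpm in those labelled Cnr1-/-. The log2 difference was 0.43 (limma adjusted p = 0.821), and the groups overlapped. *Smc4* did not pass after median centring or quantile normalisation (0.35 in both) or without the mean-variance trend (0.43). Nor did it pass without replicate 1 (0.44) or 3 (0.24) labelled Cnr1+/+, or without replicate 1 (0.46) or 2 (0.33) labelled Cnr1-/-. Among the most abundant genes, *Tubb5*, a tubulin, had a mean of 62.5 cpm and a log2 fold change of 0.18. *Rfc1*, the large subunit of the complex that loads Pcna onto DNA, had 34.4 cpm and 0.13. *Lig1*, a DNA ligase that binds Pcna, had 23.8 cpm and 0.17, and *Mcm3*, a subunit of the replicative helicase, had 30.4 cpm and −0.02.

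**Figure D4:**
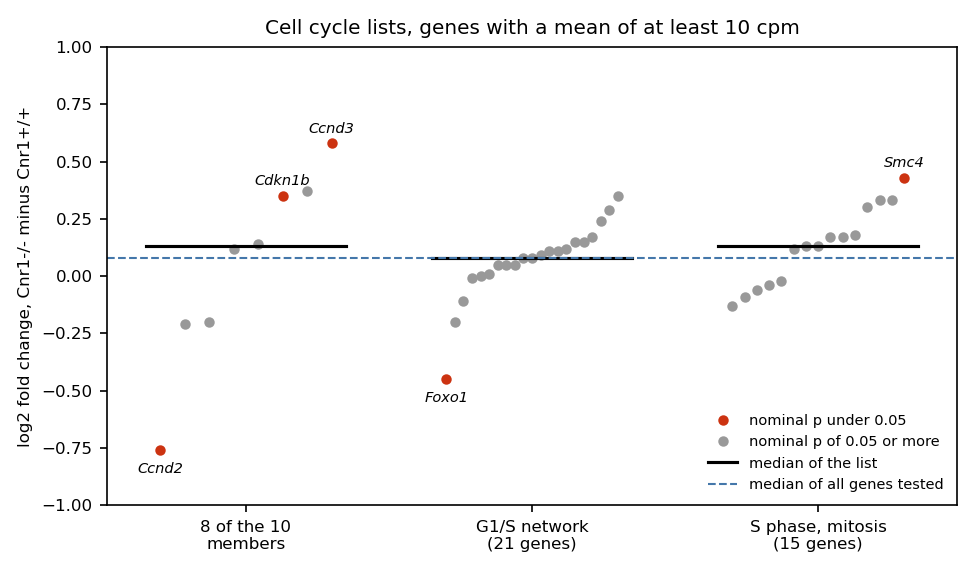
Log2 fold change (Cnr1-/- minus Cnr1+/+, vertical axis) of the tested genes among the members (8), the G1/S network (21) and the S phase and mitosis genes (15), ordered by value within each list; red points have a nominal p under 0.05, black lines are list medians and the dashed line is the median of all genes tested. *Ccnd3* and *Ccnd2* lie outside the range of both other lists, −0.45 to 0.35 and −0.13 to 0.43.

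Markers of other cell types were set beside these values. The border-associated macrophage markers (7 of 7 listed) summed to 114.4 to 148.3 cpm in libraries labelled Cnr1+/+ and 96.4 to 126.6 cpm in those labelled Cnr1-/-. Oligodendrocyte markers (4 of 4) summed to 490.3 to 695.9 and 344.8 to 644.2 cpm, astrocyte markers (4 of 4) to 160.2 to 327.1 and 229.3 to 348.0 cpm, and neuron markers (5 of 5) to 18.8 to 24.6 and 15.8 to 27.9 cpm. Endothelial markers (4 of 4) summed to 14.9 to 23.7 cpm over the 6 libraries, and monocyte markers (4 of 4) to 23.9 to 27.9 and 23.2 to 36.8 cpm. Of 6 lymphocyte markers 1 was listed, *Cd79a*, at no more than 1.68 cpm. All of these sums overlapped between groups, and their part in the values of the members was not tested.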

How the data were processed

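RNA of CD11b+ cells was sequenced from 3′ ends (QuantSeq, single reads), 1 library per mouse. The authors aligned trimmed reads to mm10 with STAR, divided them among genes by expectation-maximisation in Partek against Ensembl transcripts and applied TMM. The deposited values are CPM. The listed genes hold 50.11%, 54.06% and 54.26% of the scaled total in libraries labelled Cnr1+/+ (replicates 1 to 3). In those labelled Cnr1-/- they hold 53.52%, 59.12% and 58.1%. The part of this difference in the share of higher genes was not tested. Reads per value were derived from the value of 1 read, but only 83.4% to 85.5% of the values in a library were whole, so no count test was used. Genotype labels were compared with limma 3.58.1 in R 4.3.3 (lmFit, eBayes with trend) on log2 (CPM + 0.1) over the 6659 genes averaging 10 CPM or more. The model held genotype alone, and p-values were adjusted over all genes tested (Benjamini-Hochberg). Replicates are separate mice. Thresholds were a nominal p under 0.05 and an adjusted p under 0.1, to which the study adds a fold change over 1.5. A fold change on this scale slightly understates that of low genes. The fit was also run on simulated data with a common spread for all genes and no deviating library. That run does not cover data with a library such as replicate 2 labelled Cnr1-/-. Gene ends in the deposited table are 1 base past those of GENCODE vM21, which are printed. The named genes are the 10 members and, of the other lists, genes with a nominal p under 0.05 and the 5 most abundant. Further genes of these lists were named after their values were seen. The members and lists were chosen with earlier results of these data known. Fits were repeated leaving out each library, with a block for replicate number, without trend, after quantile normalisation or median centring, with a pseudocount of 1, and with a minimum of 20 CPM or none. Plots used Python 3.11.15 and matplotlib 3.10.9.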

Additional observations from a re-analysis of the deposited data

How the results depend on the processing

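Of the alternative fits of single members, 89 kept the direction and the side of the nominal threshold, 8 lost the call, 3 gained it and 1 reversed, *Cdk4* without replicate 3 labelled Cnr1+/+ (log2 difference 0 on rounding, and 0 to 0.22 with 1 library left out in turn). The losses were those of *Ccnd2* without replicate 2 labelled Cnr1+/+ and 7 of *Cdkn1b*, 2 of them after median centring or quantile normalisation, 1 without the mean-variance trend and 4 without replicate 1 or 3 labelled Cnr1+/+ or replicate 2 or 3 labelled Cnr1-/-. The gains were *Ccnd1* under the other scalings and *Pcna* without replicate 3 labelled Cnr1+/+. Between 2 and 3 members passed in every alternative and 0 had an adjusted p under 0.1 with limma in any. Of all genes tested 401 passed, 993 without the filter (19225 tested) and 263 with a minimum of 20 (4126 tested). With 1 library left out 251 to 600 passed, the fewest without replicate 2 labelled Cnr1-/- and the most without replicate 3 labelled Cnr1+/+. With an adjusted p under 0.1 there were 7, 0 with median centring, quantile normalisation or no trend, and from 1 (without replicate 2 labelled Cnr1+/+) to 24 (without replicate 3 labelled Cnr1-/-) with 1 library left out. Of the G1/S network 1 gene passed, and 0 to 2 with 1 library left out. Of the S phase and mitosis genes 1 passed, 3 without the filter, and 0 with median centring, quantile normalisation or no trend, and 0 to 1 with 1 library left out. The replicate numbers gave no pairing (same-number correlations −0.056, −0.032 and −0.031), and with the replicate block 3 members, 1 gene of each list and 421 genes in all passed. *Cdkn2c* rested on 2 to 18 reads per library.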

Other observations

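Most genes of the wider cell cycle lay below the minimum mean in these cells. In the fit without the filter on low values, 3 of the 70 listed S phase and mitosis genes passed a nominal p of 0.05, as did 5.17% of all genes tested. They were *Smc4*, *Cdc6* and *Mki67*, the latter pair named after their values were seen. In libraries labelled Cnr1-/-, *Cdc6*, *Mki67*, *Rrm1*, *Rrm2*, *Slbp*, *Plk1*, *Bub1*, *Cenpf* and *Kif11* were higher without overlap between groups. *Mcm6* and *Rpa3* were lower without overlap, and the other listed S phase and mitosis genes overlapped. Of the genes without overlap, only *Cdc6* and *Mki67* passed in that fit. All of them, and *Top2a*, were picked with their values known. *Mcm6*, a helicase subunit, had 7.13, 6.58 and 7.05 cpm against 4.44, 5.78 and 4.05 cpm, and *Top2a*, a topoisomerase of dividing cells, had 7.99, 8.07 and 5.33 cpm against 3.71, 13.2 and 5.25 cpm. *Mki67*, a marker of dividing cells, had 4.02, 3.99 and 3.68 cpm in libraries labelled Cnr1+/+ and 4.55, 12.1 and 6.46 cpm in those labelled Cnr1-/- (limma adjusted p = 0.933). *Cdc6*, which loads the replicative helicase, had 0.259, 0.0998 and 0 cpm against 0.866, 1.96 and 0.835 cpm (limma adjusted p = 0.831), and its values labelled Cnr1+/+ lie below the level of 3 reads. Both were highest in replicate 2 labelled Cnr1-/-, the library with the highest neutrophil and erythrocyte markers, whose part in these values was not tested, and no fit without both that library and the filter was run.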
